A study of Mus musculus with 34 samples.

Results

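The genes described here are the ligands and receptors of axon guidance: the semaphorins with their plexin and neuropilin receptors, the ephrins with the Eph receptors, the Slits with the Robo receptors, and the netrins with DCC, neogenin and the UNC5 receptors. They were taken from a deposited table of gene levels as protein-coding genes chosen by their GENCODE M21 symbol, which gave 72 of 18548 genes. The symbol had to begin with Sema, Plxn, Efna, Efnb, Epha, Ephb, Slit1, Slit2, Slit3, Robo or Unc5, or stand in a fixed list. That list held Ntn1, Ntn4, the netrin-G genes Ntng1 and Ntng2, Dcc, Neo1, Nrp1 and Nrp2, so other netrin genes were not taken. Of the 72, Unc50 and Unc5cl entered by the prefix of their symbol alone, and neither is a netrin receptor of the UNC5 family. RNA sequencing was done on 34 libraries from the brains of male C57BL/6J mice at postnatal day 56, with no treatment. Libraries labelled Myt1l heterozygote (HT) and wild type (WT) came from prefrontal cortex (PFC; 5 HT and 6 WT), hippocampus (5 and 6) and striatum (6 and 6). Myt1l is a transcription factor gene of the MYT family, active in neurons. The labels do not describe the mutated allele, and they do not say that each library came from a separate animal, so a p-value here measures the spread between libraries, which may in part be technical.

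Values are normalized counts, which are reads per gene divided by a scaling factor of the library, and differences were tested on log2(value + 1) with limma and Benjamini-Hochberg adjustment over all genes tested, with a threshold of 0.05. Summed normalized counts per library were 25786041 to 29798959, and the depth before scaling is not given. Myt1l itself was at 6388 to 7525 normalized counts in PFC HT and 5578 to 7992 in PFC WT, and the groups overlapped in the other regions too, so its RNA level does not check the genotype labels, which were followed. Markers of the labelled tissues were present. The sum of 10 striatal projection neuron markers was 79212 to 101325 in WT striatum and at most 15714 in WT libraries of the other regions, and the sum of 8 hippocampal neuron markers was 33393 to 36295 in WT hippocampus and at most 14894 elsewhere in WT. The library code 31-67M stands on WT PFC replicate 6 and on HT replicate 1 of hippocampus and of striatum, against the genotype of one or the other label. The 34 libraries carry 12 codes, each on 2 or 3 libraries, mostly 1 of each region, and the labels do not say whether a code is an animal. The region comparisons treat the 18 WT libraries as independent, and with the code as a random block they gave 54, 52 and 53 called members for hippocampus against PFC, striatum against PFC and striatum against hippocampus, where the fit without it gave 53, 52 and 53. In bulk tissue, fewer cells of a type and less RNA per cell cannot be told apart.

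Axon guidance proteins steer growing axons by attraction and repulsion. Semaphorins are secreted or membrane-bound and signal through plexins, and most secreted class 3 semaphorins need a neuropilin as the part that binds the ligand. Ephrins are tethered to membranes and bind Eph receptor tyrosine kinases on neighbouring cells, with ephrin-A ligands binding mainly EphA and ephrin-B ligands mainly EphB receptors. Slits repel axons through Robo receptors, and netrin-1 attracts through DCC and repels through UNC5 receptors. In the adult brain many of these genes stay expressed in neurons, where they are known for roles at synapses and dendritic spines.

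The first comparison asked where in the WT brain these genes are expressed. Most of them differed between regions. Of 72 members, 69 passed the filter on low values (a mean of at least 10 normalized counts over the libraries of the fit), and Efna4, Epha1 and Unc5cl did not. Between hippocampus and PFC 53 of 69 differed, 32 higher (23.6% of all genes) and 21 lower (22.7%) in hippocampus, where 46.3% of all 17017 genes tested were called. Between striatum and PFC 52 of 69 differed (24 higher and 28 lower in striatum, beside 29.0% and 27.7% of all genes; in either direction 56.6% of all genes), and between striatum and hippocampus 53 of 69 (24 higher and 29 lower in striatum, beside 23.9% and 23.6%; in either direction 47.5% of all genes). The median size of the difference, without regard to sign, was 0.45, 0.40 and 0.57 on the log2 scale for the members and 0.22, 0.28 and 0.23 for all genes. At least 1 apart on the log2 scale were 20, 15 and 20 members, beside 9.11%, 13.4% and 10.8% of all genes. The values of the 6 libraries of one region did not overlap those of the other for 42, 38 and 40 of 69 members, beside 29.0%, 35.8% and 29.8% of all genes.

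A gene was called highest in a region when it passed the threshold against both other regions. By that rule 19 of 69 members were highest in hippocampus, where 9.31% of all genes were, 14 in PFC (14.7% of all genes) and 13 in striatum (16.0%), and 23 in none. Lowest by the same rule were 18 members in PFC (14.4% of all genes), 11 in hippocampus (8.59%) and 17 in striatum (15.6%). The library sums were lower in striatum than in PFC, so scaling every library to an equal total raised the median of all genes by 0.14 (log2) in striatum against PFC. With that scaling the split of all called genes in striatum against PFC went from 4931 higher and 4708 lower to 7273 higher and 3152 lower, and in hippocampus against PFC from 4017 and 3858 to 5785 and 2883. The members' split in striatum against PFC went from 24 higher and 28 lower to 34 and 20, and in hippocampus against PFC from 32 and 21 to 36 and 20. No called member changed direction. In that scaling the calls of Efna5, Epha5, Epha7, Robo2, Sema3a, Sema3g, Sema6c and Slit2 as lower in striatum than in PFC were lost. Gained as higher in striatum than in PFC were Efna1, Efnb2, Neo1, Nrp1, Ntn4, Plxnc1, Sema5b, Slit3, Unc50 and Unc5d. Newly highest in striatum were Efnb2, Ntn4, Plxnb1, Plxnc1, Sema5b, Unc50 and Unc5d, and in hippocampus Efna3, Ntng2 and Plxna1. In all, 10, 20 and 20 members were then highest in PFC, hippocampus and striatum. The share of all genes highest in each region was not counted in that scaling. The shares of 14.7%, 9.31% and 16.0% therefore do not stand beside these counts.

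**Figure D1:**
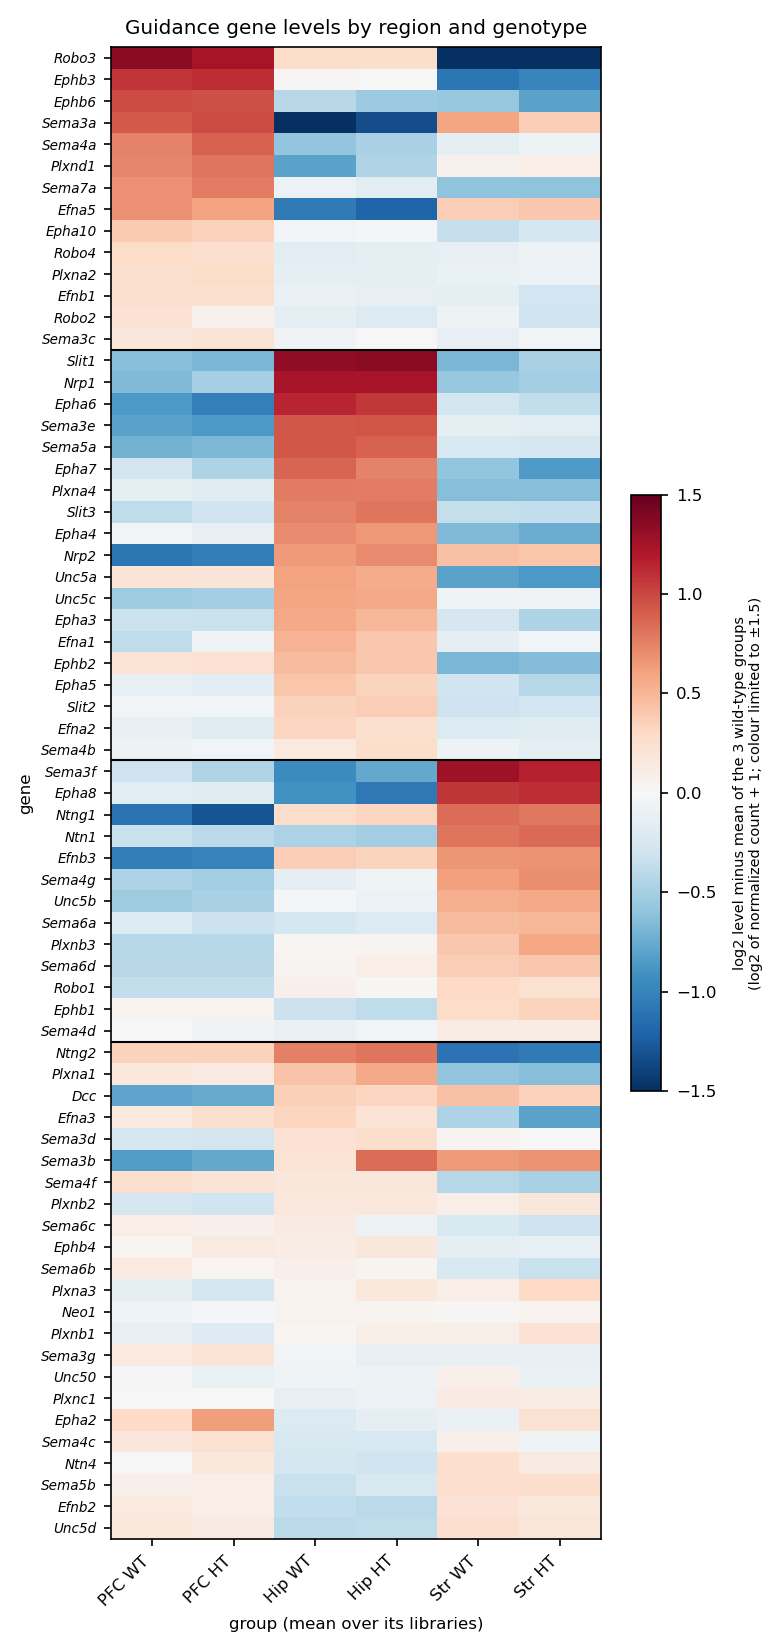
Each row is 1 of the 69 tested guidance genes and each column 1 of the 6 groups. The colour is the mean log2(normalized count + 1) of the group minus the mean of the 3 wild-type groups of that gene, with red above and blue below that mean. Black lines separate genes highest in PFC (14), in hippocampus (19), in striatum (13) and in none (23), and the heterozygote column of each region is close in colour to its wild-type column.

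The class 3 semaphorins are secreted ligands, and their genes peaked in different regions. Sema3e, the ligand of plexin D1, was at 1873 to 2397 (median 2195) normalized counts in the 6 WT hippocampus libraries, at 836 to 1207 (median 1065) in striatum and at 558 to 807 (median 629.6) in PFC. All 6 hippocampus libraries lay above those of the other regions. The log2 difference of hippocampus against PFC was 1.74 (SE 0.10; limma adjusted p = 4.90e-12). Sema3a, a repellent that acts through neuropilin-1, ran the other way, at 99.2 to 213 (median 121) in hippocampus, 494 to 599 (median 555) in striatum and 582 to 769 (median 704) in PFC. The hippocampus libraries were lowest without overlap, with a difference from PFC of -2.42 (SE 0.13; limma adjusted p = 1.67e-12) and of striatum from hippocampus of 2.10 (SE 0.13; limma adjusted p = 1.01e-11). Sema3f, which acts through neuropilin-2, was at 371 to 539.8 (median 513) in striatum against 114 to 235 (median 159) in PFC and 64.1 to 138 (median 106) in hippocampus, so that every striatum library stood above every library of the other regions. Its differences were 1.59 (SE 0.18; limma adjusted p = 1.31e-07) from PFC and 2.22 (SE 0.18; limma adjusted p = 8.60e-10) from hippocampus.

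Sema3b, a further secreted class 3 ligand, was higher in striatum than in PFC by 1.48 (SE 0.31; limma adjusted p = 4.30e-04), with WT libraries at 32 to 75.3 in PFC, 42.8 to 214 in hippocampus and 114 to 313 in striatum. Its level went with the summed level of 6 choroid plexus markers, none of which was at 0 in every library. The 2 hippocampus libraries with a low choroid sum (HT replicate 1 and WT replicate 6, 2112 to 2422) held Sema3b at 42.8 to 74.0, and the other 9, with sums of 22493 to 86180.0, held it at 111 to 269. In striatum HT replicate 1 had a choroid sum of 1332 and a Sema3b level of 58.3, where the other 11 libraries had 22443 to 88935 and 114 to 313. The WT PFC libraries summed to 127 to 228 for these markers. The part of choroid plexus tissue in the Sema3b differences was not tested. Sema3c was highest in PFC at 1095 ± 69.4 normalized counts (SD, n = 6), with 937 in hippocampus and 894 in striatum. Its call as highest in PFC, and that of Sema3a, was lost with equal library totals. Sema3d was lowest in PFC and Sema3g was highest in none of the regions.

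Among the transmembrane and GPI-anchored semaphorins, 3 were highest in hippocampus or PFC by more than 1 on the log2 scale against at least 1 other region. Sema5a, a transmembrane ligand with thrombospondin repeats, was at 4109.8 to 4603 in WT hippocampus against 1810.1 to 2340.5 in striatum and 1233 to 1979 in PFC, with a hippocampus minus PFC difference of 1.64 (SE 0.09). Sema7a, a GPI-anchored ligand of plexin C1 and integrins, was highest in PFC at 4880.0 to 5984 (median 5328), with 2806 to 3301 (median 3191) in hippocampus and 1780.2 to 2453 (median 2351) in striatum. The 3 regions did not overlap for Sema7a, and striatum differed from PFC by -1.29 (SE 0.07; limma adjusted p = 3.17e-12). Sema4a, a ligand of B and D plexins, was at 1506 to 1941 (median 1742) in PFC, above all hippocampus (616 to 782 (median 684)) and striatum (809 to 1137 (median 912)) libraries, and hippocampus differed from PFC by -1.34 (SE 0.08; limma adjusted p = 3.83e-12). Sema4d, Sema4g, Sema6a and Sema6d were highest in striatum, and of these Sema4g had the largest difference from PFC, 1.08 (SE 0.10). Sema4b was highest in hippocampus by a small margin (0.23 against PFC), a call lost with equal library totals. Sema4c, Sema4f, Sema5b, Sema6b and Sema6c were highest in none of the regions, though Sema5b was called highest in striatum with equal library totals. Per 1000 bases of transcript, Sema7a in PFC (1628 ± 110.4 normalized counts per kb) and in hippocampus (947 ± 60.1) stood above all other semaphorins, and Sema3b in PFC was lowest at 18.5.

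The neuropilins, the binding parts of the class 3 receptors, were both highest in hippocampus. Nrp1 was at 1819 to 2277 (median 2073) normalized counts there, and at 528 to 662 (median 588) in striatum and 478 to 722 (median 526) in PFC. All hippocampus libraries were above all others, while the PFC and striatum libraries overlapped. The difference of hippocampus from PFC was 1.90 (SE 0.08; limma adjusted p = 3.42e-14) and of striatum from hippocampus -1.80 (SE 0.08; limma adjusted p = 4.22e-14). Nrp2 was at 2277 to 2683 (median 2532) in hippocampus, 1826 to 2449.5 (median 2176) in striatum and 691 to 841 (median 730.3) in PFC, so here PFC alone was low. Its differences from PFC were 1.72 (SE 0.07; limma adjusted p = 3.90e-15) for hippocampus and 1.53 (SE 0.07; limma adjusted p = 2.23e-14) for striatum, and its call as highest in hippocampus was lost with equal library totals. The order of Nrp1 was thus the reverse of that of its ligand Sema3a in hippocampus, and Nrp2 and its ligand Sema3f were both higher in striatum than in PFC.

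The plexins are the signalling receptors of the semaphorins. Of 9, Plxna4 was highest in hippocampus (6627 ± 486 normalized counts (SD, n = 6); 0.94 against PFC and -1.42 for striatum against hippocampus), Plxna2 and Plxnd1 in PFC and Plxnb3 in striatum. Plxna1 was lowest in striatum at 2518 ± 432 normalized counts (SD, n = 6). Plxna3, Plxnb1 and Plxnb2 were lowest in PFC, and Plxnc1 was neither highest nor lowest in a region. With equal library totals Plxnb1 and Plxnc1 were called highest in striatum. Plxnb3, a receptor known from oligodendrocytes, was at 521 to 729 in PFC, 758 to 1062 in hippocampus and 939.7 to 1227 in striatum, and the sum of 7 oligodendrocyte markers rose in the same order, at 82971 to 131281, 138859 to 181912 and 209176 to 254726. The part of oligodendrocytes in the level of Plxnb3, and of Sema4d, which these cells also express, was not tested. Plxnd1, the receptor of Sema3e, was at 2269 to 3244 (median 2651) in PFC, 1171 to 2186 (median 1754) in striatum and 678 to 1061 (median 967) in hippocampus. All PFC libraries lay above all hippocampus libraries, with a difference of -1.53 (SE 0.15; limma adjusted p = 8.13e-08). The ligand Sema3e was thus highest and its receptor Plxnd1 lowest in WT hippocampus.

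The 250 bases before the annotated starts of this ligand and receptor are shown because the pair stands at opposite ends in hippocampus and because MYT1 family proteins bind a motif with the core AAGTT, for which the promoters were searched. Sequences are from RefSeq on GRCm38.p6, 5′ to 3′ on the gene's strand, with AAGTT on either strand (AACTT where it lies on the other one) in capitals; Sema3e is chr5:14025026-14025275 on the plus strand and Plxnd1 is chr6:115995006-115995255 on the minus strand.
Sema3e: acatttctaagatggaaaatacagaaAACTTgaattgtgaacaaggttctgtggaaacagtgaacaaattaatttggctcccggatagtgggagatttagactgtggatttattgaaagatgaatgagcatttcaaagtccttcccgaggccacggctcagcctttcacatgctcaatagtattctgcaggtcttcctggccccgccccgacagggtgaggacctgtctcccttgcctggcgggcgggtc
Plxnd1: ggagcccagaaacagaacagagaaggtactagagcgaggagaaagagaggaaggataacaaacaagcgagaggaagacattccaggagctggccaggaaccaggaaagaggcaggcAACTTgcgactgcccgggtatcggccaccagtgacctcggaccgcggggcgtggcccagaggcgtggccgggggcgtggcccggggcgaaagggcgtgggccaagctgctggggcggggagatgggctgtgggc
Each window held 1 match. RefSeq windows of 300 bases (250 before and 50 after the start) matched 62 of the 72 members, with 78 windows. AAGTT on either strand was in 26 of 78 member windows (33.3%) and in 39.3% of all 32851 windows. By gene it was in 26 of 62 members and in 36.8% of the table's genes with a window. TATAAA was in 2 of 78 member windows (Efnb2 and Slit2, 2.56%) and in 13.6% of all windows, and CAGCTG, which is the same on both strands, in 14.1% and 16.3%. Counted by gene, TATAAA was in 3.23% of the 62 members and 9.49% of the table's genes with a window, and CAGCTG in 17.7% and 18.9%. All motifs were searched on both strands, and TATAAA and AAGTT can share bases at their ends. A match is a description and not a binding site. Member windows held a median of 20 CG dinucleotides, where the genes of the table had 18 and all windows 7.

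Of the ephrins, Efna5, a GPI-anchored ligand of EphA receptors, was lowest in hippocampus at 153 to 204 (median 173) normalized counts, where striatum had 374 to 619 (median 466) and PFC 530.2 to 681 (median 579.6). The hippocampus libraries did not overlap with the others, and the differences were -1.75 (SE 0.10; limma adjusted p = 2.93e-12) for hippocampus against PFC and 1.43 (SE 0.10; limma adjusted p = 4.89e-11) for striatum against hippocampus. Efnb3, a transmembrane ligand known as a midline barrier to corticospinal axons, was at 3879 to 4695 (median 4302) in striatum, 3346 to 3664 (median 3514) in hippocampus and 1010.2 to 1601 (median 1355) in PFC. The 3 regions did not overlap, and striatum differed from PFC by 1.70 (SE 0.07; limma adjusted p = 3.83e-14). Efna1 and Efna2 were highest in hippocampus and Efnb1 in PFC. Efna3 was lowest in striatum, and Efnb2 was lowest in hippocampus. Efna1, Efna3 and Efna4 are neighbours on chromosome 3 (chr3:89271733-89281142, chr3:89313899-89322965 and chr3:89333390-89338028, GRCm38), with levels per kb of transcript in WT hippocampus of 73.3, 963 and 4.45.

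Of the 8 EphA receptors tested, 5 were highest in hippocampus: Epha3, Epha4, Epha5, Epha6 and Epha7. Epha6 was at 1672 to 2058 (median 1871) normalized counts there against 393 to 573 (median 465) in PFC and 523 to 812 (median 704) in striatum, with all hippocampus libraries above all others and a difference from PFC of 2.01 (SE 0.10; limma adjusted p = 3.42e-13). Epha7 was at 3899 to 4554 (median 4355) in hippocampus, 1645 to 2241 (median 1896) in PFC and 1306 to 1814 (median 1568) in striatum, again without overlap of hippocampus and the rest, and striatum differed from hippocampus by -1.47 (SE 0.08; limma adjusted p = 2.26e-12). Epha4, which binds ephrins of both classes, had the highest level per kb of the Eph receptors in each region, 2032 ± 147 normalized counts per kb in hippocampus, 1212 ± 123 in PFC and 789 ± 53.9 in striatum. Epha8 went the other way, at 389 to 575 (median 471) in striatum, 123 to 256 (median 216) in PFC and 82.8 to 165 (median 123) in hippocampus, and all striatum libraries were above the rest (striatum against hippocampus 1.98 (SE 0.17; limma adjusted p = 1.50e-09)). Epha10, which lacks an active kinase, was highest in PFC, and Epha2 differed between no pair of regions.

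The promoters of the ligand Efna5, lowest in hippocampus, of the receptor Epha7, highest there, and of Epha8, highest in striatum, are shown for comparison (RefSeq, GRCm38.p6, 250 bases before the start on the gene's strand): Efna5 chr17:62881318-62881567 on the minus strand, Epha7 chr4:28812881-28813130 on the plus strand and Epha8 chr4:136956817-136957066 on the minus strand. None of the 3 holds AAGTT on either strand, so no base is in capitals, and a window without these letters says nothing of a factor's binding elsewhere.
Efna5: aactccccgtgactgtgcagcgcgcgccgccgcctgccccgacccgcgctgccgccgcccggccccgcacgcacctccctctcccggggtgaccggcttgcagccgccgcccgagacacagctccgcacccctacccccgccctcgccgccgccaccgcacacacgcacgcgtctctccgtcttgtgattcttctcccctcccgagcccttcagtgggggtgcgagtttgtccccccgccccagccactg
Epha7: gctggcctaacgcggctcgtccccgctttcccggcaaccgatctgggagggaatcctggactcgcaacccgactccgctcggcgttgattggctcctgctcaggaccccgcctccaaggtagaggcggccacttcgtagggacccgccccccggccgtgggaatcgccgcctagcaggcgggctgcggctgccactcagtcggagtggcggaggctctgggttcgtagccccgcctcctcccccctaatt
Epha8: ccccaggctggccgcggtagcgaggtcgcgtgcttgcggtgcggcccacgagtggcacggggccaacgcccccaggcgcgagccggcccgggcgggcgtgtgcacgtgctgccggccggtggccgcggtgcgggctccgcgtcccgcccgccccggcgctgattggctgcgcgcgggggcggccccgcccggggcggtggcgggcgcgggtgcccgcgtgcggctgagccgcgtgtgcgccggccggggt
They hold 32, 25 and 46 CG dinucleotides, where the windows of Sema3e and Plxnd1 above hold 7 and 16. By region, AAGTT was in the windows of 7 of 17 members highest in hippocampus, 5 of 14 highest in PFC and 5 of 9 highest in striatum.

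The EphB receptors differed from one another. Ephb3 was at 574 to 980.5 (median 777) in PFC, 292 to 483 (median 364) in hippocampus and 151 to 201 (median 172) in striatum, with no overlap, and striatum differed from PFC by -2.16 (SE 0.12; limma adjusted p = 1.66e-12). Ephb6, a receptor without kinase activity, was at 3398 to 4095 (median 3686) in PFC, above all libraries of hippocampus (1277 to 1568 (median 1387)) and striatum (999 to 1722 (median 1245)), which overlapped. Its differences from PFC were -1.40 (SE 0.09; limma adjusted p = 6.72e-11) in hippocampus and -1.55 (SE 0.09; limma adjusted p = 7.51e-12) in striatum. Ephb2 was highest in hippocampus and Ephb1 in striatum, and Ephb4, known from vessels, passed the threshold in no comparison of regions.

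All 3 Slit genes were highest in hippocampus, while 3 of the 4 Robo receptors were highest in PFC. Slit1 was at 6291 to 7621 (median 6588) normalized counts in hippocampus, 1338 to 1957 (median 1784) in PFC and 1326 to 1965 (median 1631) in striatum. All hippocampus libraries lay above all others, and the differences were 1.96 (SE 0.09; limma adjusted p = 7.05e-13) from PFC and -2.02 (SE 0.09; limma adjusted p = 2.24e-13) for striatum against hippocampus. Slit3 differed from PFC by 1.13 (SE 0.07) and Slit2 by 0.38 (SE 0.11). Robo3, a divergent Robo known from commissural axons, was at 1815 to 2302 (median 1990.0) in PFC, 787 to 1155 (median 962) in hippocampus and 113 to 469.8 (median 302) in striatum. The 3 regions did not overlap, with differences of -2.98 (SE 0.30; limma adjusted p = 1.89e-07) for striatum against PFC and -1.90 (SE 0.30; limma adjusted p = 4.49e-05) against hippocampus. Robo2, a main Slit receptor, and Robo4, the receptor of endothelial cells, were highest in PFC by smaller margins (-0.36 and -0.44 for hippocampus against PFC), and the call of Robo2 was lost with equal library totals. Robo1, the other main Slit receptor, was highest in striatum (0.67 against PFC).

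Of the netrin ligands, Ntn1 was at 459 to 548 (median 508) in striatum, 192 to 308 (median 226) in PFC and 188 to 241 (median 204) in hippocampus, all striatum libraries being above the rest (against hippocampus 1.27 (SE 0.09; limma adjusted p = 1.40e-10)). Ntn4 was higher in striatum than in hippocampus only, and with equal library totals it was higher than in PFC too. The receptor gene Dcc was lowest in PFC at 618 ± 63.9 normalized counts (SD, n = 6), with 1373 in hippocampus and 1445 in striatum. Neo1, its relative that also binds RGM proteins, differed between no pair of regions in the main fit. Scaled to equal library totals, Neo1 was called lowest in PFC. Unc5a and Unc5c were highest in hippocampus and Unc5b in striatum, while Unc5d was lowest in hippocampus. The netrin-G ligands are membrane-anchored and bind the NGL proteins of the opposite membrane, and they stood at opposite ends in striatum, where Ntng1 was higher and Ntng2 lower than in both other regions. Ntng1 was at 1093 to 1659 (median 1384) in striatum, 723 to 1389 (median 895) in hippocampus and 283 to 422 (median 346) in PFC, PFC being below all others, and striatum differed from PFC by 1.95 (SE 0.14; limma adjusted p = 2.69e-10). The summed level of 6 genes listed for thalamus and neighbouring regions (Tcf7l2, Lef1, Prkcd, Six3, Rora and Zic1) was also high in WT striatum. It was 7895 to 11437 there against at most 3780.5 in the other WT regions. The list was not checked against striatal cells, so the sum alone does not tell whether tissue of neighbouring regions was present. The part of such tissue in the Ntng1 level was not tested. Ntng2 was at 133 to 340.1 (median 235) in striatum, 563 to 637 (median 587) in PFC and 737 to 921 (median 761) in hippocampus, with all striatum libraries below the rest. The difference of striatum was -1.45 (SE 0.20; limma adjusted p = 3.82e-06) from PFC and -1.86 (SE 0.20; limma adjusted p = 1.87e-07) from hippocampus.

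**Figure D2:**
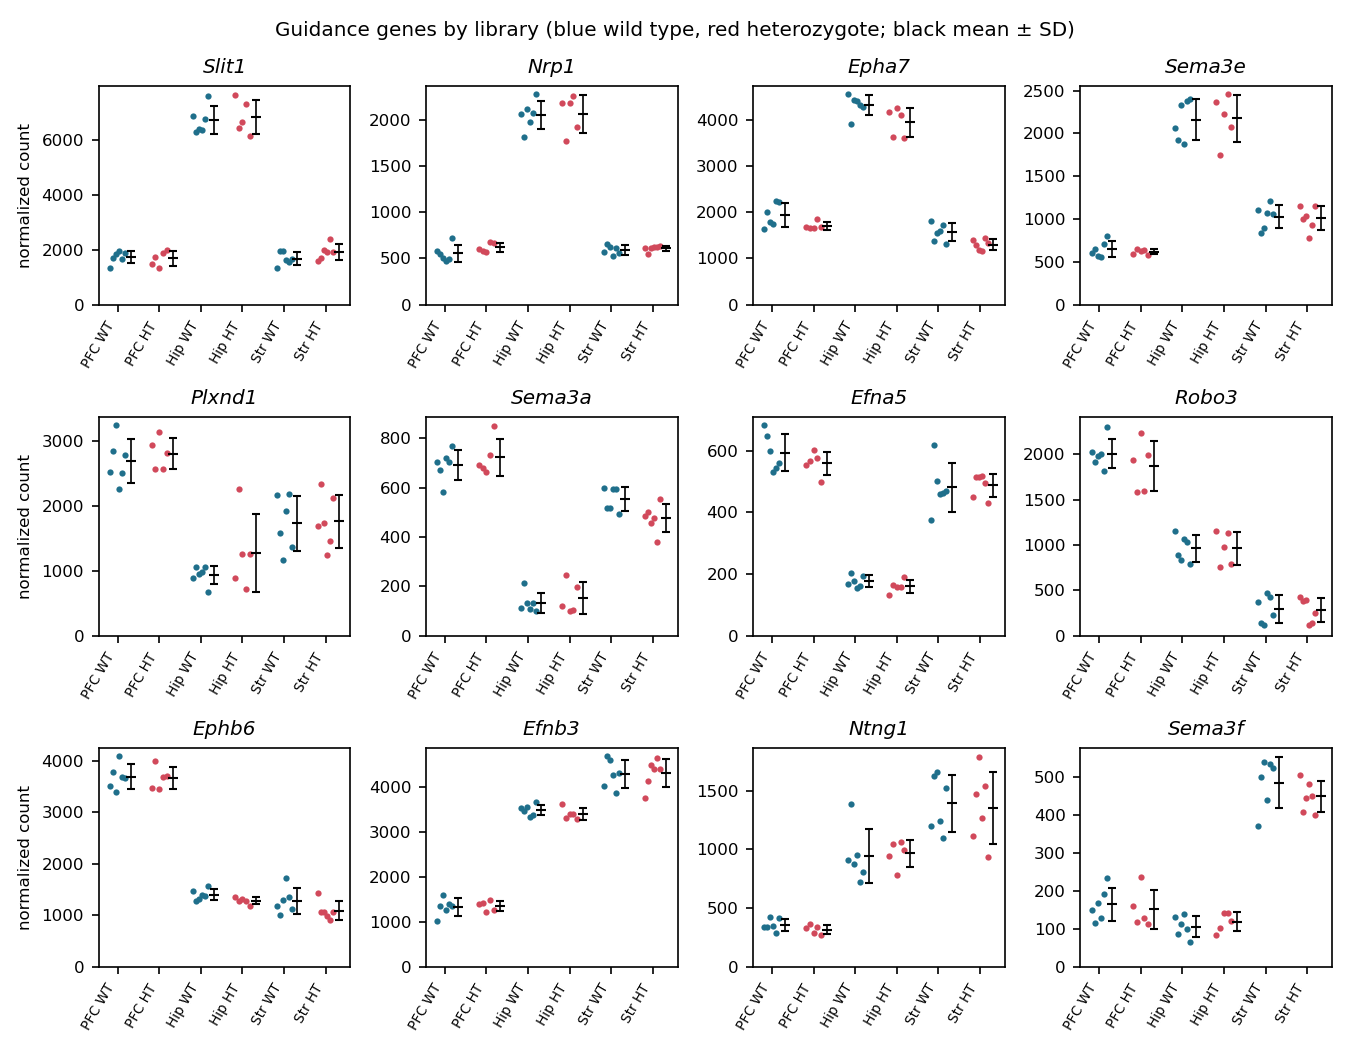
Normalized counts of 12 guidance genes in each library (y axis, from 0) for the 6 groups (x axis). Points are libraries, blue for wild type and red for heterozygote, and the black mark beside them is the mean with its SD. For Slit1, Nrp1, Epha7 and Sema3e all hippocampus points lie above the others, and for Sema3a and Efna5 all lie below.

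By the WT mean alone, without a test, the 72 members were highest in hippocampus (28), striatum (25) and PFC (19). Those of hippocampus were Efna1, Efna2, Efna3, Efna4, Epha3, Epha4, Epha5, Epha6, Epha7, Ephb2, Ephb4, Neo1, Nrp1, Nrp2, Ntng2, Plxna1, Plxna4, Plxnb2, Sema3d, Sema3e, Sema4b, Sema5a, Sema6c, Slit1, Slit2, Slit3, Unc5a and Unc5c. Those of striatum were Dcc, Efnb2, Efnb3, Epha1, Epha8, Ephb1, Ntn1, Ntn4, Ntng1, Plxna3, Plxnb1, Plxnb3, Plxnc1, Robo1, Sema3b, Sema3f, Sema4d, Sema4g, Sema5b, Sema6a, Sema6d, Unc50, Unc5b, Unc5cl and Unc5d. Those of PFC were Efna5, Efnb1, Epha10, Epha2, Ephb3, Ephb6, Plxna2, Plxnd1, Robo2, Robo3, Robo4, Sema3a, Sema3c, Sema3g, Sema4a, Sema4c, Sema4f, Sema6b and Sema7a. The ratio of the highest to the lowest regional mean ranged from 1.08 for Neo1 to 6.87 for Robo3 over the 69 tested members, with Sema3a at 5.24. The 3 members that did not pass the filter had WT group means of 5.04 to 7.12 for Efna4, 2.44 to 14.8 for Epha1 and 0.426 to 12.5 for Unc5cl. Of all members, 13 overlap another gene of the table on either strand by their whole spans, introns included. Among them are Nrp2, Epha6, Ntng2 and Plxna4. The others are Efna3, Efnb2, Epha1, Ephb4, Plxnb1, Sema4b, Sema4c, Unc5a and Unc5c. Whether exons overlap was not checked, so it is not known whether reads are shared. The labelled library kit does not mark the strand, so the strand could not separate such reads.

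Libraries of the striatum differed among themselves in cortical content. The sum of 7 markers of cortical excitatory neurons, none of them at 0 in every library, was 54082 to 57677 in WT PFC and 2952 to 14093 in the 12 striatum libraries. It was 9544 to 14093 in 5 striatum libraries (HT replicates 1 and 2 and WT replicates 1, 4 and 5) and 2952 to 4179 in the other 7. Ntng2 was at 292 to 355 normalized counts in the 5 and 133 to 193 in the 7, Unc5a at 1458 to 1649 against 1224 to 1407, and Epha5 at 2654 to 3017 against 2277 to 2579. Efnb3 was at 3774 to 4286 in the 5 and 4317 to 4695 in the 7. The other members overlapped between them, Robo3 with 376 to 470 against 112 to 398. The share of all genes without overlap at this split was not counted, so these genes are not set apart from others. The region comparison holds 3 of these 5 libraries, and without those 3 WT libraries, which leaves 3 WT libraries of striatum, the difference of striatum from PFC was -3.71 for Robo3 and -2.001 for Ntng2, and from hippocampus -2.64 and -2.41. The part of cortical tissue in the members' levels was not tested.

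**Figure D3:**
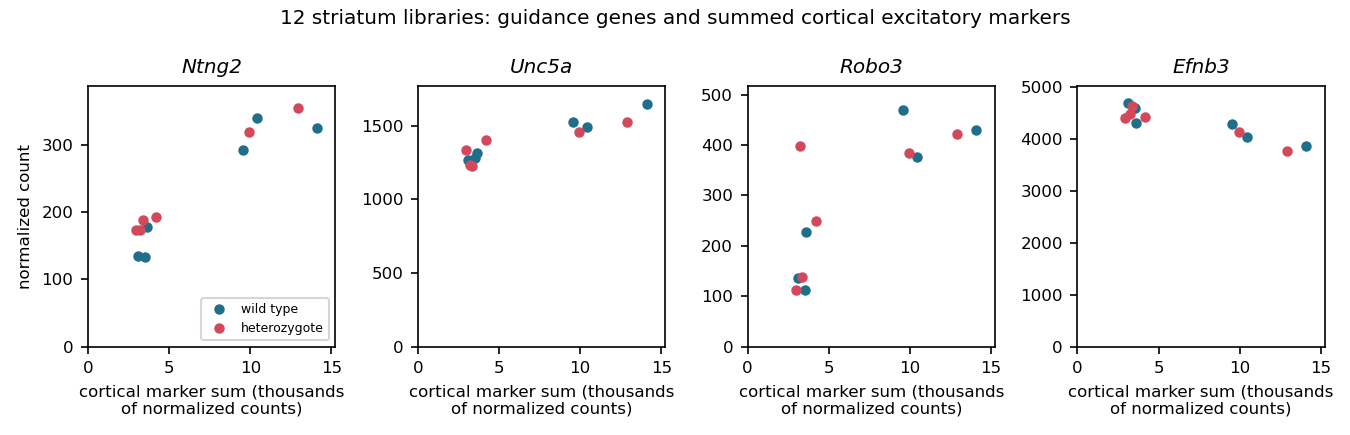
Normalized counts of 4 guidance genes (y axis, from 0) in the 12 striatum libraries against the summed level of 7 cortical excitatory markers in units of 1000 normalized counts (x axis). Blue points are wild type and red points heterozygote, and 5 libraries lie above 9 on the x axis. Ntng2 and Unc5a are higher in those 5 than in the other 7 and Efnb3 is lower, while Robo3 overlaps.

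Whether the regional order also stood in the HT libraries, which share no library with the WT ones but share the code 31-67M, was read from the same fit made on HT libraries alone. Called in the same direction in both genotypes were 50 members between hippocampus and PFC (94.3% of the 53 WT calls and 90.9% of the 55 HT calls), 51 between striatum and PFC (98.1% of 52 and of 52) and 48 between striatum and hippocampus (90.6% of 53 and 96.0% of 50). None was called in opposite directions. Neither this agreement nor that of the classes below was counted for all genes, so it does not set the members apart from other genes. Of the members highest in a region in WT, 18 of 19 in hippocampus, 13 of 14 in PFC and 13 of 13 in striatum had the same call in HT, the exceptions being Ephb2 and Efna5. Of the members lowest in a region in WT, 18 of 18 in PFC, 7 of 11 in hippocampus and 16 of 17 in striatum had the same call. The calls not met in HT were those of Plxnd1, Sema3f, Sema4c and Sema5b as lowest in hippocampus and of Sema6c as lowest in striatum. For Plxnd1 the HT difference of striatum from hippocampus was 0.55 (SE 0.24; limma adjusted p = 0.0772). The largest gap between the genotypes in a regional difference was 0.55 for hippocampus against PFC and 0.59 for striatum against hippocampus, both of Sema3b, and 0.43 for striatum against PFC, of Efna3.

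**Figure D4:**
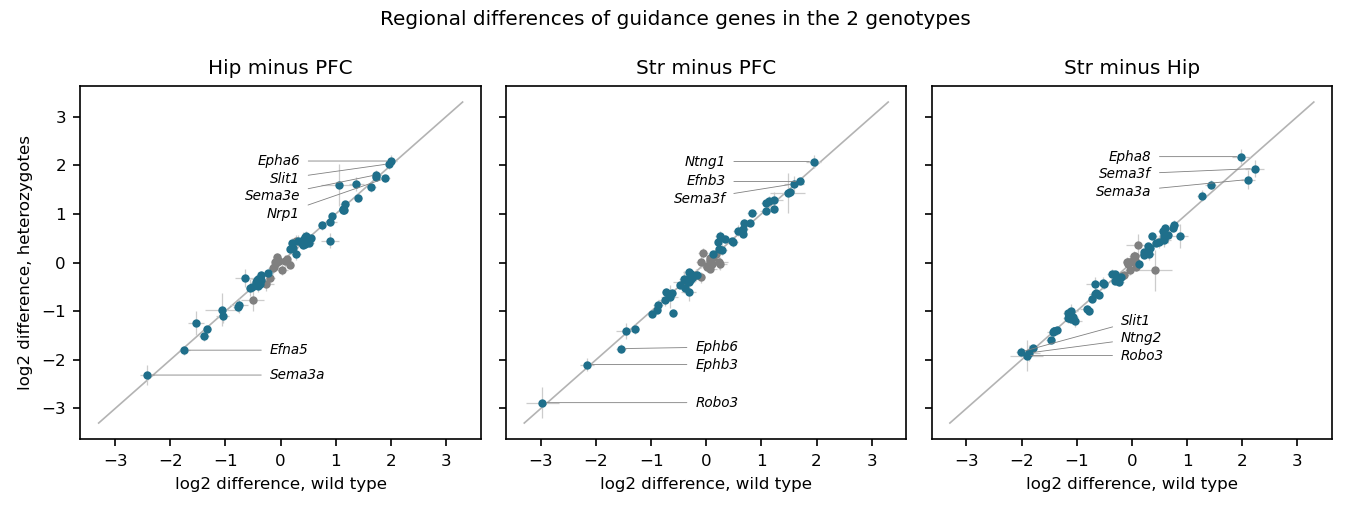
Each point is 1 of 69 guidance genes, with its log2 difference between 2 regions in wild-type libraries on the x axis and in heterozygote libraries on the y axis. Bars are standard errors from limma, the line marks equal values, and blue points passed the threshold in wild type. The points lie along the line from Robo3 at -2.98 to Ntng1 at 1.95 in striatum minus PFC.

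The next comparison asked whether these genes differ between HT and WT within a region. No member passed the threshold in limma in PFC (0 of 69), hippocampus (0 of 70) or striatum (0 of 71), where 0.0% of all 16667, 16820 and 17054 genes were called. At an unadjusted p under 0.05 were 4, 3 and 9 members, beside 5.0%, 6.81% and 5.89% of all genes. The members' median log2 difference was -0.0069 in PFC, -0.0007 in hippocampus and -0.0029 in striatum, and 32 of 69, 35 of 70 and 34 of 71 lay above 0, beside 48.7%, 49.4% and 48.4% of all genes. The 95% interval of a member reached, at the median, 0.17 to either side in PFC, 0.16 in hippocampus and 0.19 in striatum on the log2 scale. The groups overlapped for every tested member except Unc50 in striatum, beside 0.462%, 0.678% and 0.399% of all genes without overlap in PFC, hippocampus and striatum. The members below are those with the smallest p, up to 5 in each direction, and none of their values is a call.

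Epha7, an EphA receptor of neurons, was below the WT mean in every HT library of each region. The gene was picked by its p, and the share of all genes with every HT library on one side was not counted. In PFC the 5 HT libraries were at 1672, 1659, 1649.5, 1855 and 1684 normalized counts, and the WT libraries at 1645 to 2241 (median 1896). In hippocampus they were at 4158, 3616, 4238, 4094 and 3596 against 3899 to 4554 (median 4355), and in striatum at 1156 to 1436 (median 1315) against 1306 to 1814 (median 1568). The groups overlapped in each region. On the log2 scale HT differed from WT by -0.18 (SE 0.08; limma adjusted p = 0.977) in PFC, -0.13 (SE 0.05; limma adjusted p = 0.719) in hippocampus and -0.26 (SE 0.08; limma adjusted p = 0.715) in striatum. In the code series 35, the largest of the 3, the values were -0.07, -0.10 and -0.30, while the series 31 and 37 hold at most 1 library a group. Without the 5 striatum libraries with high cortical markers the striatum value was -0.15. The summed striatal projection neuron markers were 67105 to 101674 in HT and 79212 to 101325 in WT striatum, and their part in this value was not tested. Of the EphA receptors 7 of 8 tested lay below 0 in PFC, 6 of 8 in hippocampus and 6 of 9 in striatum, a count of signs without a test. Above 0 were 48.7%, 49.4% and 48.4% of all genes. Other families leaned to one side too, as in hippocampus, where 7 of 8 ephrins lay below 0 and 6 of 6 class 4 semaphorins above. The ephrin above 0 was Efna4, which is given below without a test.

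In PFC, Robo2 had the smallest p of the members. Its HT libraries were at 3225, 3555, 3362, 3425 and 2831 normalized counts and its WT libraries at 3276 to 3891 (median 3701), with overlap, and the difference was -0.16 (SE 0.06; limma adjusted p = 0.977), or -0.10 within the code series 35. Sema6b was at -0.12 (SE 0.05), Ntng1 at -0.18 (SE 0.11) and Epha6 at -0.17 (SE 0.11). On the higher side stood Sema4a at 0.15 (SE 0.07), Nrp1 at 0.17 (SE 0.10), Efna3 at 0.10 (SE 0.06), Efna1 at 0.33 (SE 0.21) and Epha2 at 0.32 (SE 0.22). WT replicate 1 of PFC had the lowest sum of oligodendrocyte markers, 82971 where the other WT libraries of PFC had 123605 to 131281.

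In hippocampus Efna4, an ephrin-A ligand, was among the lowest levels of the members, with a WT mean of 7.12, and passed the filter only through its HT libraries, so its difference is given as values with no test. It is 1 of the 3 members counted above at an unadjusted p under 0.05 in hippocampus, and 1 of the 35 of 70 above 0. Its HT libraries were at 15, 16.6, 15.3, 14.6 and 15.8 normalized counts and its WT libraries at 2.17 to 15.5 (median 4.54), with overlap. Apart from Epha7, Ephb6 was at -0.13 (SE 0.06), Sema6c at -0.20 (SE 0.10), Epha5 at -0.09 (SE 0.05) and Efna3 at -0.12 (SE 0.06). Plxna1 was at 0.13 (SE 0.07), Nrp2 at 0.07 (SE 0.05), Sema4d at 0.07 (SE 0.04) and Plxna3 at 0.10 (SE 0.07). Plxnd1 in HT hippocampus ran from 713 to 2258, with HT replicate 2 the highest of all hippocampus libraries.

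In striatum, Efna3 had the smallest p. Its HT libraries were at 593 to 792 (median 685) normalized counts and its WT libraries at 738 to 1065 (median 880.0), each HT library below the WT mean but with overlap, and the difference was -0.33 (SE 0.09; limma adjusted p = 0.715). Unc50, a membrane protein outside guidance signalling, was at 631 to 709 in HT and 718 to 771 in WT without overlap, a difference of -0.18 (SE 0.05; limma adjusted p = 0.715). Sema3a was at -0.22 (SE 0.09) and Epha5 at -0.13 (SE 0.06). The plexin genes Plxnb1 (0.13 (SE 0.04)), Plxnb3 (0.18 (SE 0.06)) and Plxna3 (0.20 (SE 0.07)) were above the WT mean in 6 of 6 HT libraries, as was Sema3c. Above it in 0 of 6 were Efna3, Efnb1, Epha3, Epha5, Epha7, Sema4b, Sema4c, Sema6b and Unc50. Such genes were not counted over the whole table. Without the 5 striatum libraries high in cortical markers, which leaves 7, the values were 0.08 for Plxnb3, -0.14 for Sema3a and -0.08 for Epha5. In the same fit Efna3 was at -0.36, Unc50 at -0.19, Plxnb1 at 0.15, Plxna3 at 0.18, Epha2 at 0.34 and Slit1 at 0.15. Plxnb1, the receptor of Sema4D, was at 3339 to 3715 (median 3495) in HT and 3097 to 3394 (median 3163) in WT, and its adjusted p was 0.715. Slit1 was at 0.20 (SE 0.11) and Epha2 at 0.33 (SE 0.17). Oligodendrocyte markers, beside which Plxnb3 is read, summed to 233579 to 275391 in HT and 209176 to 254726 in WT striatum, and their part was not tested.

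Averaged over the 3 regions in 1 model of all libraries with the library code as a random block, 0 of 69 members were called, beside 0.0938% of all genes (16 of 17051), and 8 members had an unadjusted p under 0.05, beside 9.37% of all genes. Epha7 had the smallest p, at -0.19 (SE 0.05; limma adjusted p = 0.0938) with a 95% interval of -0.29 to -0.10. The average was also fitted 34 times with 1 library left out, which was not planned in advance. Among these fits Epha7 passed the threshold without WT replicate 1 of PFC (-0.21) and without WT replicate 6 of striatum (-0.21). It did not pass in the main fit, and its value was -0.15 without the striatum libraries with high cortical markers. Next were Robo2 at -0.15 (SE 0.05; limma adjusted p = 0.35), Epha5 at -0.09 (SE 0.03), Unc50 at -0.09 (SE 0.03) and Sema6b at -0.08 (SE 0.03). On the higher side were Sema4a at 0.11 (SE 0.05), Epha2 at 0.24 (SE 0.13), Sema3c at 0.06 (SE 0.03), Nrp1 at 0.07 (SE 0.05) and Plxnb1 at 0.04 (SE 0.03). The average shares its libraries with the comparisons within regions and is no separate evidence.

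**Figure D5:**
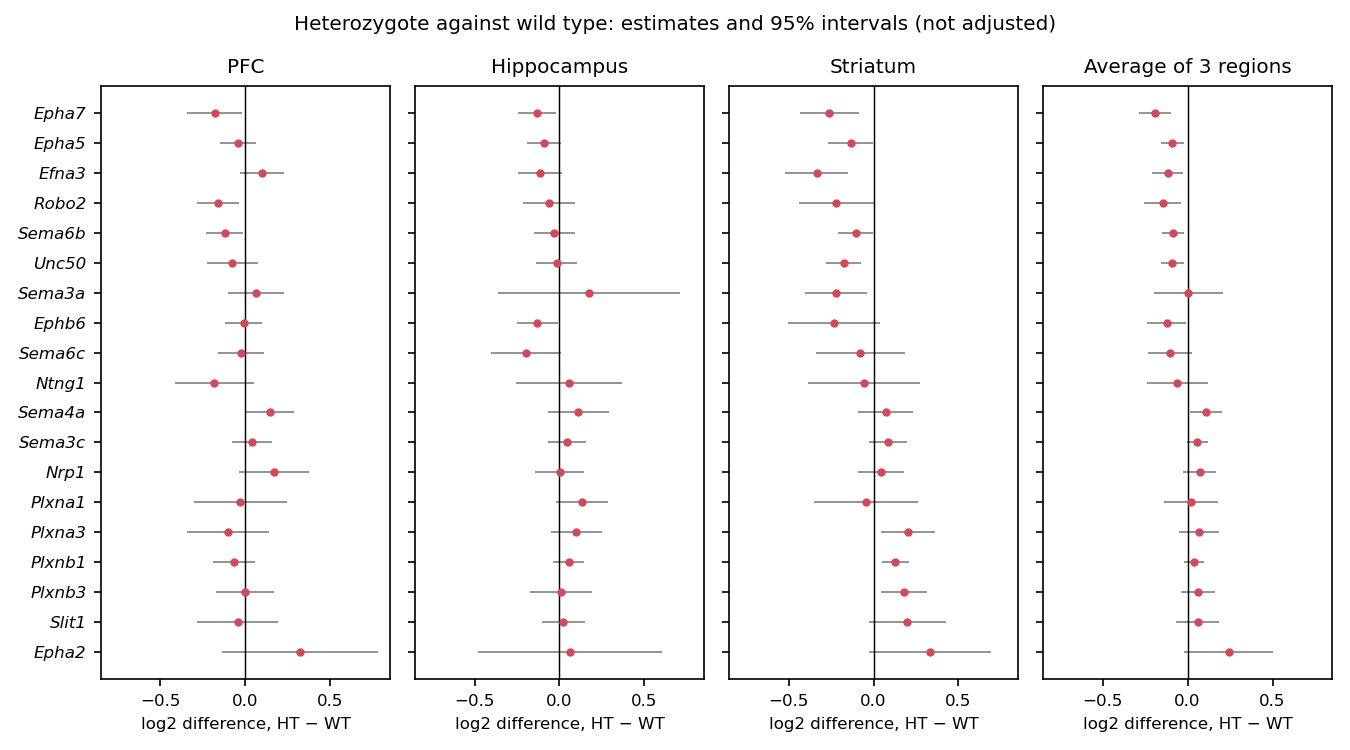
Log2 difference of heterozygotes from wild type (x axis) for 19 guidance genes in PFC, hippocampus, striatum and their average. Points are limma estimates and bars their 95% intervals, not adjusted for the number of genes. Epha7 lies below 0 in all 4 panels, at -0.18, -0.13, -0.26 and -0.19, and no value passed the adjusted threshold.

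Whether a genotype difference itself differed between regions was tested as an interaction. No member passed (0 of 69 for each pair of regions, with 0.0% of all 17051 genes called), and 1, 3 and 2 members had an unadjusted p under 0.05 for hippocampus against PFC, striatum against PFC and striatum against hippocampus, beside 3.76%, 3.59% and 3.69% of all genes. Efna3, at 0.10 in PFC and -0.33 in striatum, had the smallest p for striatum against PFC, a difference of effects of -0.43 (SE 0.11; limma adjusted p = 0.999). Its values for the other pairs were -0.21 (SE 0.11) for hippocampus against PFC and -0.22 (SE 0.11) for striatum against hippocampus. The other members named by the rule of the 2 smallest p were Efna1 at -0.45 (SE 0.22), Plxnb1 at 0.20 (SE 0.07) and Unc50 at -0.16 (SE 0.08).

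Of the other genes of the pathway, 77 effectors, co-receptors and modulators were taken, most of which carry these signals inside the cell. They were chosen with earlier results of these data known, so their shares are a description and no separate evidence. In WT 56 of 77 differed between hippocampus and PFC (27 higher and 29 lower in hippocampus), 61 between striatum and PFC (23 and 38) and 53 between striatum and hippocampus (23 and 30), which is 72.7%, 79.2% and 68.8% of them beside 46.3%, 56.6% and 47.5% of all genes. In hippocampus against PFC, Draxin, a secreted ligand of DCC, was at 1.88 (SE 0.31), with Rnd1, a GTPase that binds plexins, at -1.93 (SE 0.09) and Ngef, which encodes the EphA-linked exchange factor ephexin, at -1.89 (SE 0.06). In striatum against PFC, Srgap1, a Slit-Robo GTPase-activating protein, was at 2.09 (SE 0.07) and Dpysl5, of the CRMP family, at 1.258, while the Nogo receptor gene Rtn4r was at -3.25 (SE 0.22) and Mical2, of the plexin-linked MICAL oxidases, at -2.78 (SE 0.13). Against hippocampus, striatum was higher for Ngef (1.69) and Srgap1 (1.604) and lower for Rtn4r (-2.61) and Mical2 (-2.58). Between genotypes 0 of them passed in limma, with 8 of 76, 6 of 77 and 1 of 77 at an unadjusted p under 0.05 in PFC, hippocampus and striatum and 9 of 77 on average, beside 5.0%, 6.81%, 5.89% and 9.37% of all genes. Those with the smallest p were Mical1 (0.35) and Met (-0.40) in PFC, Limk1 (-0.27) and Tiam1 (0.12) in hippocampus, Flrt3 (-0.14) and Enah (0.13) in striatum, and Farp1 (0.09) and Rac1 (-0.05) on average.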

How the data were processed

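The deposited signal values are DESeq counts in the authors' naming, 1 for each gene in each library. Tools in the submitters' processing notes, given with no role, are DESeq2 1.26.0, Salmon 1.1.0 and R 3.6.2, with the build GRCm38. The values are not whole numbers, so no count test was run. Of 18548 gene identifiers, 18533 matched GENCODE M21. Columns were joined to samples by title and code. Values were transformed to log2(value + 1), genes with a mean of at least 10 were kept, and limma 3.58.1 in R 4.3.3 (trend and robust, 2-sided, Benjamini-Hochberg, 0.05) was fitted to each region for genotype, to the 18 wild-type libraries for region, and to all 34 libraries for interactions and the average. The fits were tested on simulated data. Levels per kb use the median length of coding transcripts. The members and gene lists were chosen with earlier results of these data known. Genes named with values were, in each region comparison, the 5 with the largest difference in each direction among those past the threshold, in each genotype comparison up to 5 in each direction with the smallest p, for each interaction the 2 with the smallest p, and for the other pathway genes up to 2 in each direction; others give the level of a family member or a value beside a marker. Alternatives were another pseudocount, filter or scaling, blocks, and each library left out. The limit on cortical markers in striatum was chosen after seeing the data. Figures were drawn with matplotlib 3.10.9, and summaries used pandas 2.3.3 under python 3.11.15.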

Additional observations from a re-analysis of the deposited data

Results flagged for a closer look

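Within 216 groups of 5 or 6 libraries (36 named members in 6 groups), 11 had 1 library set apart from the others by Dixon's rule, where chance flags about 1 in 20 groups. In striatum, Efna1 was at 88.3 normalized counts in HT replicate 5 (others 67.01 to 72.2), Ephb6 at 1442 in HT replicate 1 (902 to 1063), Nrp1 at 553 in HT replicate 2 (611 to 630.2), Sema6c at 593 in HT replicate 4 (361 to 404) and Sema3b at 313 in WT replicate 2 (114 to 139). In hippocampus, Ntng1 was at 1389 (723 to 956) and Sema3a at 213 (99.2 to 131) in WT replicate 2, Plxnb1 at 2935 in WT replicate 4 (3080.1 to 3147), and Sema6c at 745 in WT replicate 1 (498 to 586). In PFC, Epha7 was at 1855 in HT replicate 4 (1649.5 to 1684) and Ntn1 at 308 in WT replicate 3 (192 to 232). The 11 flags fell on 10 libraries.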

How the results depend on the processing

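Of the counts of called members under an alternative, 254 stayed within 1.5 times the main count and 5 did not, and no value of a named member changed direction. These counts include the genotype and interaction fits, where the main count was 0. At most 48 genes of the whole table were called in any of those fits, so a count that stayed at 0 tells little. Requiring a difference of at least 1 on the log2 scale left 20, 15 and 20 members called for hippocampus against PFC, striatum against PFC and striatum against hippocampus. Leaving out 1 library gave 52 to 56, 48 to 52 and 51 to 54 calls. The average over regions gave 0 to 1 when 1 library was left out, and the 1 was Epha7. For the within-region genotype comparisons and the interactions the count was 0 in every alternative. Replicate numbers did not pair the libraries, with correlations of deviations from -0.10 to 0.10 within regions. With the replicate block the region comparisons gave 55, 50 and 53 calls and the genotype and interaction comparisons 0. Depth before scaling is not given, so no counting interval was made.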
